A study of Homo sapiens with 6 samples.

Results

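Divergent transcript genes are long noncoding genes whose names end in -DT because they start close to a protein-coding gene and run from it on the opposite strand. The members described here are 29 of the 96 such genes in the gene table, chosen by their mean level over 6 libraries, which had to reach 0.5 FPKM (a fragment count divided by transcript length and by the size of the library). They are a small part of 61556 annotated genes, of which 15944 reached the same level. That mean is therefore a description. It takes both groups together, so a gene near the threshold can pass through the group in which it is higher: CTBP1-DT and NSMCE1-DT had a mean under 0.5 FPKM with LPS, and UVRAG-DT and DNAJC3-DT in controls. The 3 LPS libraries are RNA-seq of cells treated for 12 h with 1000 ng/ml of LPS, a bacterial cell wall component that triggers innate immune signalling, and the 3 control libraries were taken at the same time. The cells are labelled EA.hy926, a hybrid line made by fusing an endothelial cell with a lung carcinoma cell, and the labels also call them umbilical vein endothelial cells. The groups come from the sample titles, since the treatment field reads alike for both. The genotype field reads LPS-induced for the LPS libraries and WT for the controls, and no other allele or agent is named. EA.hy926 is a single clonal line, and the labels do not say whether the libraries of a group are separate cultures. The p-values therefore reflect only how far these libraries vary, which may be technical.

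At most active mammalian promoters RNA polymerase starts in both directions. The upstream RNA is usually short-lived: early cleavage and polyadenylation end it and the nuclear RNA exosome, brought by adaptor complexes, degrades it, while U1 snRNP protects the coding transcript from early ending. Genes named -DT are those whose upstream RNA has a spliced or stable form that annotators could record. Such RNAs are as a rule much less abundant than the coding partner, named before -DT, and the function of most of them is not known.

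All 14 endothelial markers reached the level for testing, and their summed level was 608 to 718 FPKM in the LPS libraries and 482 to 611 FPKM in controls. Of these, 13 had a positive log2 change with LPS, and EMCN went the other way (0.394 FPKM with LPS and 1.42 FPKM in controls). The summed level of 12 epithelial markers was 91.2 to 114 FPKM with LPS and 125 to 138 FPKM in controls, with SFTPC and NKX2-1 listed at 0 in all libraries. Nearly all of this sum lay in the keratins KRT7, KRT8, KRT18 and KRT19, the only 4 that reached the level for testing. Every other epithelial marker, EPCAM and CDH1 among them, stood at 0.0805 FPKM or less in each library. KRT8, KRT18 and KRT19 were lower with LPS without overlap. KRT7 went the other way, also without overlap (18.8, 20.2 and 32.5 FPKM with LPS and 17.7, 17.4 and 15.9 FPKM in controls). The summed level of 11 fibroblast and smooth muscle markers was 3781 to 4316 FPKM with LPS and 3951 to 4293 FPKM in controls. Most of it lay in COL1A1, COL1A2 and COL3A1 (means of 1460, 1243 and 739 FPKM). Of the 9 tested, 3 had a positive change. Among the lower ones were LUM (12.8 FPKM with LPS and 21.5 FPKM in controls) and PDGFRA (21.8 and 32.6 FPKM). The sum over 10 leukocyte markers was 4.30 to 6.64 FPKM with LPS and 3.72 to 7.61 FPKM in controls, and the pan-leukocyte marker PTPRC was listed at 0 in all 6. Nearly all of this sum was CD68 (5.03 FPKM with LPS and 5.93 FPKM in controls), and only 1 of the 10 markers, CD68, reached the level for testing. No marker passed the test of LPS against control described below. The part of these markers in the results was not tested, and in such bulk samples fewer cells of a type and less RNA per cell cannot be told apart. Summed FPKM of all genes was 467380 to 483345 in LPS libraries and 427920 to 479748 in controls. FPKM carries no read depth, so the depth behind each value is unknown.

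The distance between the start of a divergent gene and that of its partner varied widely. In GENCODE it ran from 812 bp upstream of the partner's start (CRIM1-DT) to a position inside the partner (ITGB1-DT, a distance of −46947 bp), with a median of 101 bp upstream, and 16 of 29 members started within 500 bp upstream. All 29 members were found in GENCODE 29 by identifier and all lie on the strand opposite to the partner. GENCODE classes 16 of them as lincRNA, 9 as antisense, 3 as processed transcripts and 1 as a bidirectional promoter lncRNA. The annotated spans of 18 pairs lie apart and those of 11 overlap, and in 10 pairs exons of both genes share bases. The RefSeq promoter table (GRCh38.p14) held 19 members by symbol, and for 15 of them the partner's nearest start lay at most 250 bases upstream, with 47 to 223 bases between the starts (median 143). The stretches of 4 pairs on which the results below turn are given in the direction of the divergent gene, with capitals marking the GC box GGGCGG and the CCAAT box on either strand.
GAS6-DT and GAS6: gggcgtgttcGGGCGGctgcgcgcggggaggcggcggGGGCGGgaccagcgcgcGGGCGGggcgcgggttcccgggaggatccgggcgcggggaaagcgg
FLVCR1-DT and FLVCR1: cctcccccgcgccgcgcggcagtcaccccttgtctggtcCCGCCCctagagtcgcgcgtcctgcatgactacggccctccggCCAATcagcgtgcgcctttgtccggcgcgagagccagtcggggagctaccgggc
NDUFA6-DT and NDUFA6: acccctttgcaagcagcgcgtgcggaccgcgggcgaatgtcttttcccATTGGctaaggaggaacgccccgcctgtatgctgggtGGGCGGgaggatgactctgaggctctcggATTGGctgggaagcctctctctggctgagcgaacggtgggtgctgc
RELA-DT and RELA: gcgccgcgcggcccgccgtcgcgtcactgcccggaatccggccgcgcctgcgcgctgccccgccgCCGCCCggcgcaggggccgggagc
These stretches lie on GRCh38 at chr13:113864077-113864176 (GAS6 pair, plus strand), chr1:212858139-212858274 (FLVCR1 pair, minus strand), chr22:42090773-42090932 (NDUFA6 pair, plus strand) and chr11:65662917-65663005 (RELA pair, plus strand). Their lengths are 100, 136, 160 and 89 bases, and they hold 20, 18, 12 and 20 CpG dinucleotides. In GENCODE the spans of NDUFA6 and of RELA reach farther upstream and overlap the divergent gene by 25 and 9 bases.

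Promoter windows of the members (300 bases, from 250 before to 50 after the start) were rich in CpG. The median ratio of observed to expected CpG was 0.952 over 19 members and 0.579 over all 35116 windows in the table, and the median GC content was 72% and 58.7%. On either strand, GGGCGG occurred in 17 of 19 windows (89.5%) against 45.0% of all windows, and CCAAT in 11 of 19 (57.9%) against 34.6%. No member window held TATAAA, which 11.5% of all windows held. The ETS-type motif CCGGAAG stood in 3 (15.8%) against 10.3%, the AP-1-type motif TGANTCA in 1 (EIF3J-DT) against 7.71%, and the STAT-type motif TTCNNNGAA in 1 (RAB30-DT) against 7.66%. No motif listed here contains another. All windows differ from those of the members in GC content, and no windows of like GC content or of expressed genes alone were compared. These shares are therefore not read as a trait of divergent genes. A match is a description of letters and shows neither binding nor its absence.

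Members were expressed at low levels, each above 0 in all 6 libraries, with a median mean of 1.48 FPKM against 10.1 FPKM for their 29 partners. The most abundant were CRIM1-DT (8.18 ± 1.89 FPKM with LPS and 9.39 ± 2.04 in controls, SD, n = 3 each, as for all such values), GARS-DT (5.71 ± 1.11 and 6.25 ± 1.04 FPKM) and LY6E-DT (5.39 ± 0.919 and 6.05 ± 2.06 FPKM). GAS6-DT followed with a mean over all libraries of 5.67 FPKM, and after it no member exceeded a mean of 2.71 FPKM (MAFG-DT). Just above the threshold lay NSMCE1-DT (0.508 FPKM), DNAJC3-DT (0.513 FPKM) and UVRAG-DT (0.673 FPKM), and just below it LRRC8C-DT (0.466 FPKM), CHKB-DT (0.441 FPKM) and RPP38-DT (0.426 FPKM). Summed over the 29 members, FPKM was 52.1, 61.3 and 53.3 in LPS libraries 1 to 3 and 57.7, 63.7 and 70.3 in controls, so the LPS libraries lay in the lower range and LPS library 2 above control 1. The median spread within a group was 23.4% of the mean for members and 13.2% for partners.

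**Figure D1:**
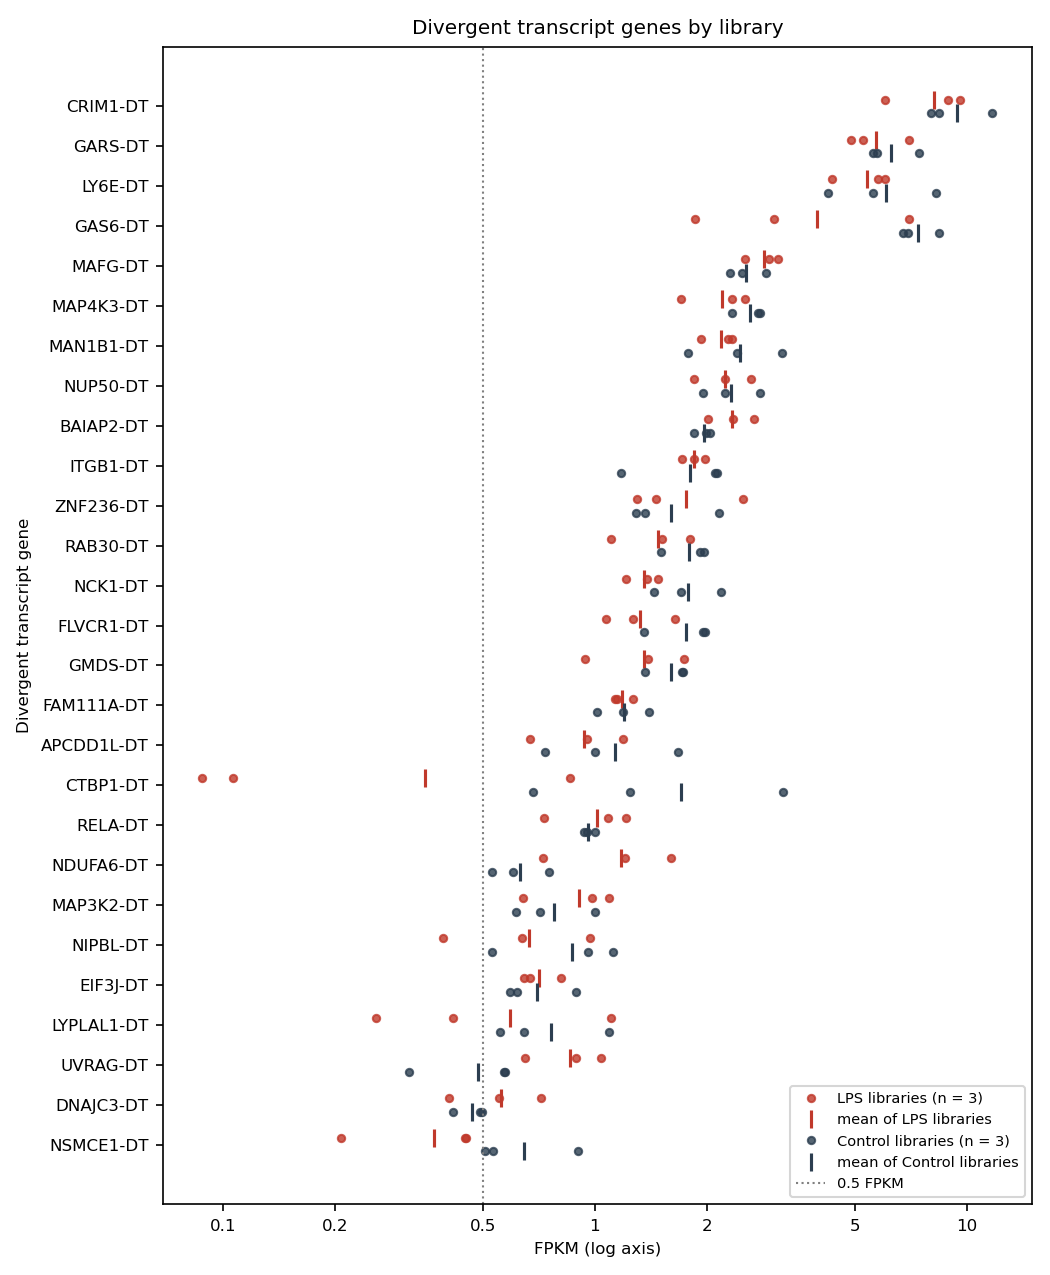
FPKM on a log axis for 27 of the 29 divergent transcript genes, with a point per library, LPS libraries above control libraries in each row, ticks for group means and a dotted line at 0.5 FPKM. Values of the groups overlap in all rows except UVRAG-DT, where LPS libraries are higher, and NSMCE1-DT, where they are lower.

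The partner was more abundant than the divergent gene in 28 of 29 pairs by the mean log2 ratio of FPKM + 0.5. The member's mean stood at a median of 10.4% of its partner's. The exception was RAB30-DT, at 156% of RAB30, a Golgi small GTPase. FLVCR1-DT (72.5% of FLVCR1), ZNF236-DT (63.6% of ZNF236), NCK1-DT (43.3% of NCK1) and BAIAP2-DT (33.0% of BAIAP2) came next. At the other end, ITGB1-DT reached 0.471% of ITGB1, the integrin beta 1 chain, and CTBP1-DT 1.65% of CTBP1, a transcriptional corepressor. Across the 29 pairs, which share libraries and may share reads, mean levels of member and partner on the log2(FPKM + 0.5) scale had a correlation of 0.501. This value was 0.139 when members were summed over annotated transcripts alone.

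Gene-level FPKM in the deposited tables is the sum over a gene's transcripts, including transcripts assembled by the authors that carry the gene's name and no Ensembl identifier. For the members this matters. Of their 379 transcripts 148 were assembled, and these carried the larger share of FPKM in 19 of 29 members (65.5%), against 76.2% of 420 antisense (-AS) genes, 42.7% of 110 LINC genes and 4.99% of protein-coding genes tested. Of the members' summed mean FPKM (59.7), 34.0% lay in annotated transcripts and 22.7% in assembled ones outside the partner's span. A further 37.9% lay in assembled transcripts that cover over 50% of the partner's span and 5.29% in ones that cover less of it. The files give no strand for these transcripts, so whether they belong to the divergent or to the coding strand was not tested, and the authors' lncRNA table holds all 231 annotated transcripts of the members and 0 of the 148 assembled ones.

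**Figure D2:**
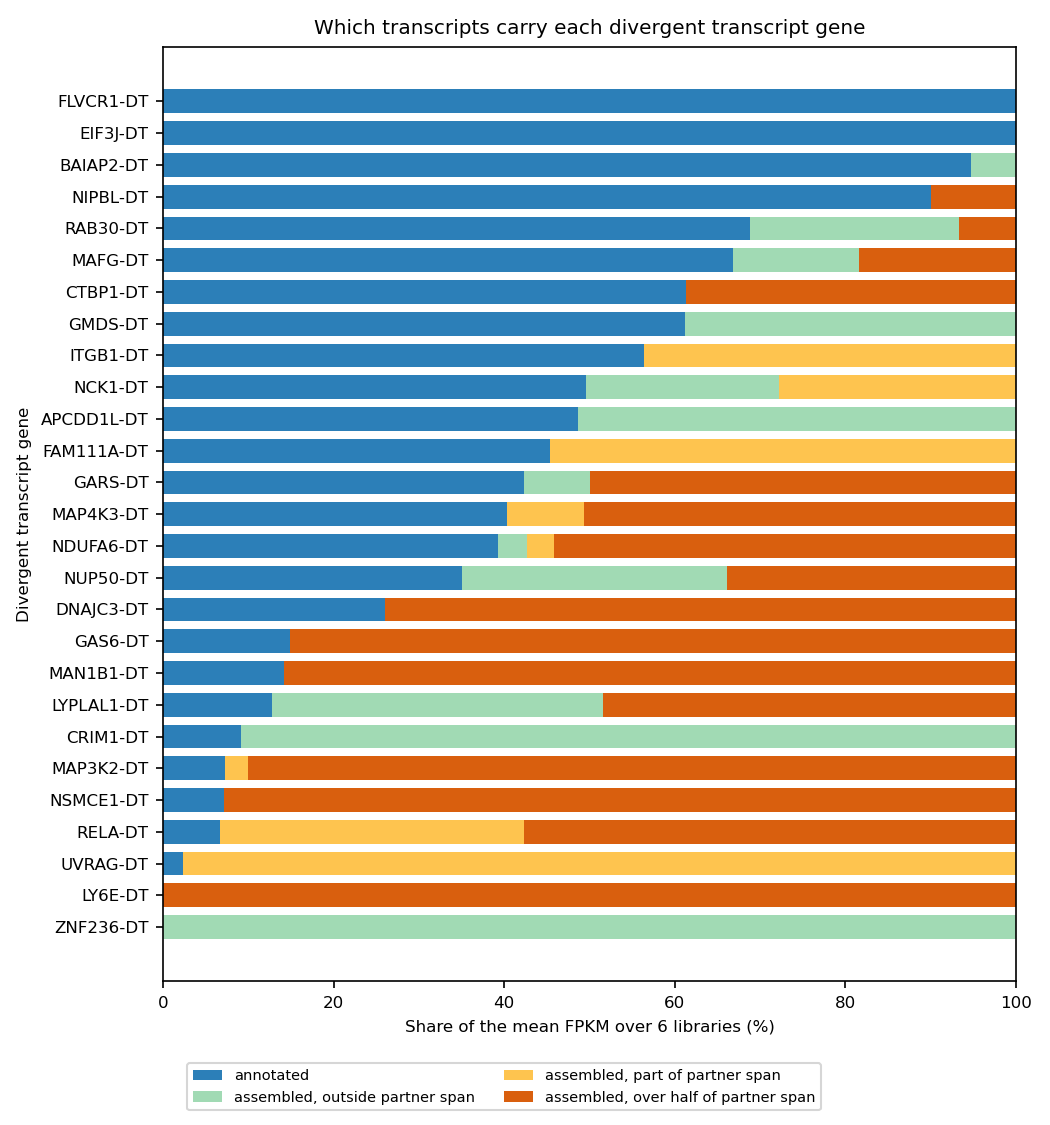
Share of the mean FPKM of 27 of the 29 members (%, x axis) carried by annotated transcripts and by assembled transcripts outside, partly along or along over 50% of the partner's span. FLVCR1-DT, EIF3J-DT, BAIAP2-DT and NIPBL-DT rest mostly on annotated transcripts, while LY6E-DT and ZNF236-DT rest on assembled ones.

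With annotated transcripts alone, 18 of the 29 members reached a mean of 0.5 FPKM and 11 did not. In this count GARS-DT was the most abundant (2.63 ± 1.48 FPKM with LPS and 2.43 ± 1.47 FPKM in controls), followed by BAIAP2-DT (2.12 ± 0.703 and 1.96 ± 0.104 FPKM) and MAFG-DT (1.84 ± 0.468 and 1.78 ± 0.128 FPKM). ZNF236-DT was listed at 0 in all libraries, and LY6E-DT stood at 0.00455 FPKM or less in each. The gene-level value of CRIM1-DT, 90.8% assembled, lay in transcripts outside the span of CRIM1, on chromosome 2 from 36354749 to 36355558. Of the 18 members, 0 passed the test in a fit of 13336 genes summed from annotated transcripts, beside 0.0825% of those genes, and 1 had a limma unadjusted p under 0.05 (GAS6-DT), beside 9.74%. The groups did not overlap in 3, beside 16.6% of those genes: GAS6-DT was lower with LPS, and ITGB1-DT and APCDD1L-DT were higher. APCDD1L-DT stood at 0.466, 0.517 and 1.07 FPKM with LPS and at 0.193, 0.395 and 0.384 FPKM in controls from annotated transcripts.

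No divergent gene differed between LPS and control libraries past the threshold, an adjusted p under 0.05 in limma on log2(FPKM + 0.5) with Benjamini-Hochberg adjustment over all genes tested. Among all 15944 genes 8 passed (0.0502%), 6 higher and 2 lower with LPS, and among the 29 members 0 did, the lowest limma adjusted p being 0.478. The unadjusted p was under 0.05 for 3 members (10.3%), a count that ran from 0 to 2 when a library was left out (0 without control library 3), beside 9.21% of all genes: NDUFA6-DT was higher with LPS, beside 4.57% of all genes, and CTBP1-DT and GAS6-DT were lower, beside 4.63%. Of the members 11 had a positive and 18 a negative log2 change, with a median of −0.12, beside −0.01 over all genes, 0.01 over 420 tested -AS genes and −0.06 over 110 tested LINC genes. The change was smaller than 0.5 on the log2 scale in 26 of 29. The SE of a member's change had a median of 0.20 and ran up to 0.48 (CTBP1-DT). In simulated data over all 15944 genes, normally distributed noise of the size that limma estimated for each gene was used. There 100 genes were changed by 1 log2 unit and 100 by 2, and 55% and 97% of these were recovered. The adjusted threshold is easier to reach when more genes change, and 8 genes passed in the data. Recovery in the data may therefore be lower. Recovery among members alone was not measured, and their median SE was above that of partners (0.15).

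Partners gave the same count: 0 of 29 passed, 4 had an unadjusted p under 0.05, and the median log2 change was −0.02, which turned in sign without LPS library 2 (0.0141). The groups did not overlap in 2 members (6.90%) and 4 partners (13.8%), beside 15.9% of all genes. Of the members 1 was higher with LPS and 1 lower, and of the partners 2 and 2, beside 8.13% and 7.76% of all genes. Across the 29 pairs, changes of member and partner had a correlation of 0.322, which was 0.136 over the 28 pairs without GAS6-DT.

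**Figure D3:**
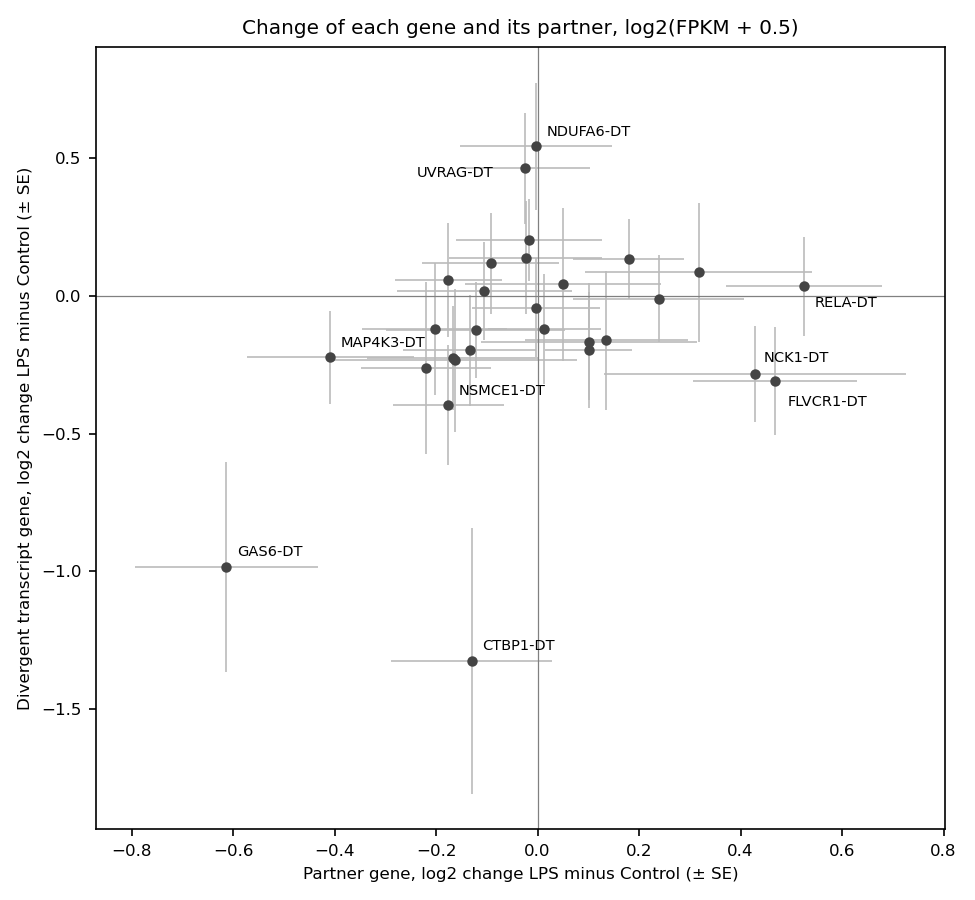
Log2 change between LPS and control libraries of each divergent gene (y axis) against that of its partner (x axis), on the log2(FPKM + 0.5) scale with bars of 1 SE. Most points lie within 0.5 of 0 on both axes, GAS6-DT lies low on both and CTBP1-DT low on the y axis.

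The GAS6 pair was the only one in which both genes had an unadjusted p under 0.05. GAS6 encodes a secreted ligand of the TYRO3, AXL and MERTK receptor kinases, and GAS6-DT lies at chromosome 13 from 113864168 to 113866833 in GENCODE, across the 100 bases printed above. GAS6 stood at 69.6, 79.0 and 47.7 FPKM in LPS libraries 1 to 3 and at 93.2, 103 and 99.2 FPKM in controls. All LPS values lay below all control values (log2 change −0.61, SE 0.18, limma unadjusted p = 0.0103, adjusted p = 0.414). GAS6-DT as a gene stood at 3.04, 6.98 and 1.85 FPKM with LPS and at 6.76, 8.41 and 6.96 FPKM in controls (log2 change −0.98, SE 0.38, limma unadjusted p = 0.0345, adjusted p = 0.511). LPS library 2 lay among the controls.

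Of that gene-level value, 85.1% came from an assembled transcript reaching from 113820601 to 113866834, along nearly the whole of GAS6, and it set the position of LPS library 2 (6.45 FPKM, against 2.56 and 1.22 FPKM in the other LPS libraries and 5.78 to 7.005 FPKM in controls). The annotated transcript GAS6-DT-201, outside GAS6, stood at 0.477, 0.533 and 0.631 FPKM with LPS and at 0.979, 1.39 and 1.05 FPKM in controls. Its groups did not overlap, and its mean was 0.547 ± 0.0777 FPKM with LPS and 1.14 ± 0.222 FPKM in controls. In the fit of all 35727 transcripts its log2 change was −0.64 (SE 0.22, limma unadjusted p = 0.0293, adjusted p = 0.819). In the fit of genes from annotated transcripts alone GAS6-DT had a log2 change of −0.64 (SE 0.19, limma unadjusted p = 0.0109, adjusted p = 0.395).

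**Figure D4:**
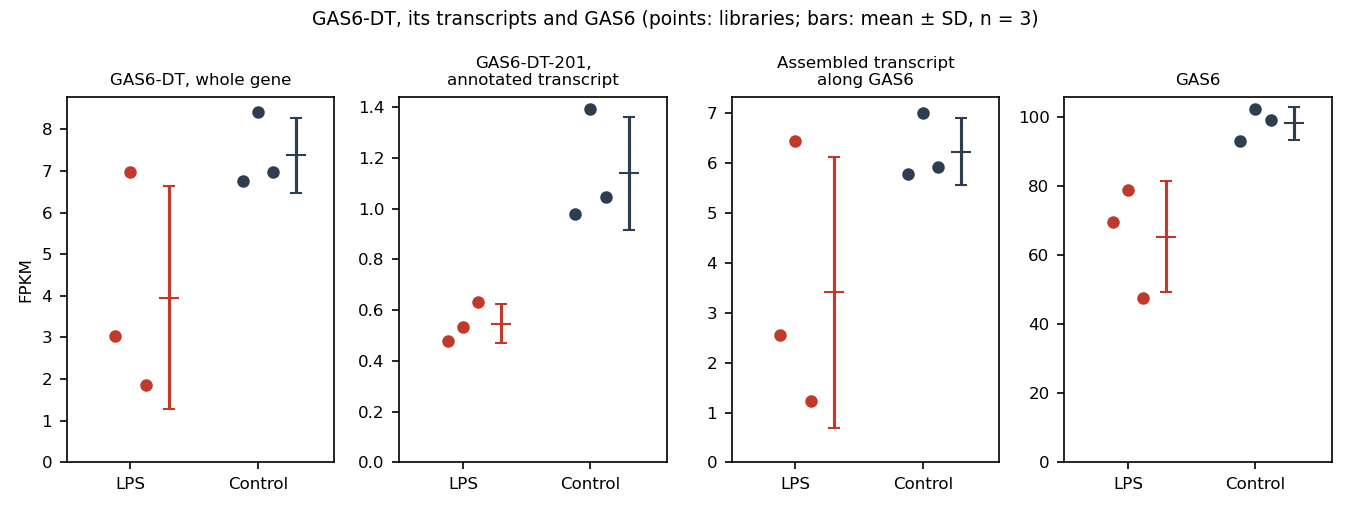
FPKM of the GAS6-DT gene, its annotated transcript GAS6-DT-201, the assembled transcript along GAS6, and GAS6, by group with points for libraries and bars for mean ± SD (n = 3), on y axes that start at 0. LPS values lie below all control values in GAS6-DT-201 and GAS6, and LPS library 2 lies among the controls in the other panels.

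CTBP1-DT had the largest change in size among the members and is a member only through the controls. It stood at 0.107, 0.857 and 0.0882 FPKM with LPS and at 1.24, 0.681 and 3.20 FPKM in controls (log2 change −1.33, SE 0.48, limma unadjusted p = 0.0271, adjusted p = 0.478). The groups overlap, and control library 3 was the highest and LPS libraries 1 and 3 the lowest. CTBP1 stood at 59.8 ± 10.2 FPKM with LPS and 65.4 ± 9.82 FPKM in controls. The change of CTBP1-DT was −2.18 with a pseudocount of 0.1, −0.94 with a pseudocount of 1 and −0.87 without control library 3. From annotated transcripts alone CTBP1-DT stood at 0.279 ± 0.352 FPKM with LPS and 0.982 ± 0.944 FPKM in controls, with a limma adjusted p of 0.63.

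NDUFA6-DT had the largest positive change. Its partner NDUFA6 encodes an accessory subunit of respiratory complex I. NDUFA6-DT stood at 1.61, 1.21 and 0.726 FPKM with LPS and at 0.529, 0.603 and 0.752 FPKM in controls (log2 change 0.54, SE 0.23, limma unadjusted p = 0.0485, adjusted p = 0.536), with LPS library 3 just under control library 3. Its annotated transcript NDUFA6-DT-201, singled out after its values were seen, was listed at 1.02, 0.563 and 0.133 FPKM with LPS and at 0 in all 3 controls, and its mean was too low for the test. NDUFA6 stood at 7.75 ± 1.54 FPKM with LPS and 7.68 ± 0.207 FPKM in controls.

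UVRAG-DT was the member whose LPS libraries all exceeded the controls, at 0.648, 1.04 and 0.889 FPKM against 0.317, 0.574 and 0.569 FPKM (log2 change 0.46, SE 0.20, limma unadjusted p = 0.0535, adjusted p = 0.55). Its change was 0.72 with a pseudocount of 0.1, and its mean passed the threshold through the LPS libraries. Assembled transcripts carried 97.7% of this value, nearly all of it in a transcript covering 29.5% of the span of UVRAG, an autophagy and endosome trafficking factor. UVRAG itself stood at 5.91 ± 0.251 FPKM with LPS and 6.04 ± 0.716 FPKM in controls. NSMCE1-DT was the member whose LPS libraries all lay below the controls, at 0.448, 0.452 and 0.208 FPKM against 0.507, 0.533 and 0.901 FPKM. It passed the threshold, with a mean of 0.508 FPKM, only through the controls, so the choice of members favours this direction for it. Its partner NSMCE1, a subunit of the SMC5/6 genome stability complex, stood at 12.4 ± 0.501 FPKM with LPS and 14.2 ± 1.31 FPKM in controls, and 92.9% of the NSMCE1-DT value was assembled.

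Among partners in signalling and adhesion, RELA had an unadjusted p as small as that of GAS6. RELA, the p65 subunit of NF-kB, stood at 12.4, 10.3 and 10.98 FPKM with LPS and at 6.35, 9.18 and 7.56 FPKM in controls (log2 change 0.53, SE 0.15, limma unadjusted p = 0.0103, adjusted p = 0.414). Its groups did not overlap. RELA-DT stood at 1.21, 0.732 and 1.09 FPKM with LPS and at 0.999, 0.933 and 0.954 FPKM in controls, which overlap (log2 change 0.03, SE 0.18). Only 6.70% of RELA-DT came from annotated transcripts.

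MAP4K3, a kinase upstream of JNK and mTORC1 signalling, stood at 10.5 ± 1.04 FPKM with LPS and 14.3 ± 3.05 FPKM in controls (limma unadjusted p = 0.04, adjusted p = 0.518), and MAP4K3-DT at 2.19 ± 0.433 and 2.62 ± 0.243 FPKM. NCK1, an SH2 and SH3 adaptor, stood at 4.33 ± 2.02 FPKM with LPS and 2.91 ± 0.509 FPKM in controls, and NCK1-DT at 1.36 ± 0.137 and 1.78 ± 0.378 FPKM. ITGB1-DT stood at 1.85 ± 0.133 and 1.80 ± 0.540 FPKM beside 364 ± 27.6 and 412 ± 31.5 FPKM of ITGB1. Its annotated transcript ITGB1-DT-201 was at 1.22, 1.04 and 1.29 FPKM with LPS and at 0.271, 0.824 and 0.769 FPKM in controls, without overlap (log2 change 0.62, SE 0.29, limma unadjusted p = 0.0764, adjusted p = 0.819).

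BAIAP2-DT stood at 2.35 ± 0.331 FPKM with LPS and 1.96 ± 0.104 FPKM in controls, and BAIAP2, an actin and membrane scaffold, at 6.49 ± 0.749 and 6.58 ± 0.875 FPKM. MAFG-DT stood at 2.86 ± 0.298 and 2.56 ± 0.293 FPKM, and MAFG, a small MAF factor that dimerizes with NRF2, at 9.61 ± 0.541 and 8.43 ± 0.535 FPKM. MAP3K2-DT, beside a kinase of the ERK5 and JNK cascades, stood at 0.907 ± 0.236 and 0.776 ± 0.2004 FPKM, and RAB30-DT at 1.48 ± 0.350 and 1.80 ± 0.255 FPKM beside 0.959 ± 0.168 and 1.13 ± 0.150 FPKM of RAB30. CRIM1, a transmembrane protein that binds bone morphogenetic proteins, stood at 114 ± 3.20 FPKM with LPS and 106 ± 5.33 FPKM in controls. LY6E-DT, whose partner LY6E is an interferon-inducible surface protein at 62.7 ± 10.6 FPKM with LPS and 71.8 ± 7.47 FPKM in controls, was carried by assembled transcripts along LY6E that differed between libraries. An example was listed at 0 in all LPS libraries and in controls 1 and 3, and at 5.16 FPKM in control 2.

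Partners in metabolism and the secretory pathway gave 1 further gene whose groups did not overlap in the positive direction. FLVCR1, a heme and choline transporter, stood at 2.62, 2.14 and 2.90 FPKM with LPS and at 1.65, 1.52 and 1.93 FPKM in controls (log2 change 0.47, SE 0.16, limma unadjusted p = 0.0216, adjusted p = 0.45). FLVCR1-DT, annotated throughout, stood at 1.64, 1.27 and 1.07 FPKM with LPS and at 1.96, 1.35 and 1.98 FPKM in controls (log2 change −0.31, SE 0.19, limma unadjusted p = 0.154, adjusted p = 0.68). The LPS values of FLVCR1-DT lay in the lower range, with LPS library 1 above control 2. LYPLAL1, a lysophospholipase-like protein, stood at 5.26 ± 0.495 FPKM with LPS and 6.21 ± 0.514 FPKM in controls without overlap, and LYPLAL1-DT at 0.593 ± 0.450 and 0.763 ± 0.286 FPKM.

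GMDS-DT, beside the GDP-fucose synthesis gene GMDS, stood at 1.36 ± 0.399 FPKM with LPS and 1.603 ± 0.203 FPKM in controls. MAN1B1-DT, beside a mannosidase of glycoprotein quality control, was at 2.18 ± 0.224 and 2.46 ± 0.707 FPKM, and DNAJC3-DT, beside an endoplasmic reticulum co-chaperone, at 0.559 ± 0.157 and 0.468 ± 0.0459 FPKM. None of these pairs separated LPS from control libraries in either gene. At gene level the same held for APCDD1L-DT (0.938 ± 0.260 FPKM with LPS and 1.14 ± 0.485 FPKM in controls) and GARS-DT, beside the glycyl-tRNA synthetase gene. From annotated transcripts alone the groups of APCDD1L-DT did not overlap and were higher with LPS. Its gene-level ratio to APCDD1L was apart in the other direction.

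Several other pairs had groups that overlapped in both genes. NIPBL-DT, beside the cohesin loader, stood at 0.667 ± 0.292 FPKM with LPS and 0.869 ± 0.306 FPKM in controls, and EIF3J-DT, beside an initiation factor subunit, at 0.709 ± 0.0912 and 0.700 ± 0.165 FPKM. NUP50-DT, beside a nuclear pore protein, stood at 2.24 ± 0.391 and 2.33 ± 0.423 FPKM, and ZNF236-DT, beside a zinc finger gene, at 1.76 ± 0.657 and 1.603 ± 0.479 FPKM. FAM111A-DT stood at 1.18 ± 0.0746 FPKM with LPS and 1.20 ± 0.192 FPKM in controls, and FAM111A, a nuclear serine protease, at 4.84 ± 0.704 and 4.04 ± 0.749 FPKM.

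The ratio of a divergent gene to its partner compares both within a library. The log2 ratio did not overlap between groups in 5 of 29 pairs (17.2%), beside 6.86% of 379 pairs of an -AS gene and the gene named before -AS. By level, the groups did not overlap in 15.9% of all genes. No share of ratios over pairs of other genes was made, so no excess is read from these values. Each of the 5 had a two-sided exact permutation p of 0.1, the smallest that 3 against 3 libraries allow. The FLVCR1-DT to FLVCR1 ratio was −0.54, −0.58 and −1.12 with LPS and 0.19, −0.12 and 0.03 in controls on the log2 scale, a difference of −0.78. In controls the genes were thus at about equal level, and with LPS the divergent gene was lower than its partner in all 3 libraries. The RELA-DT to RELA ratio was −2.91, −3.13 and −2.85 with LPS and −2.19, −2.76 and −2.47 in controls (difference −0.49).

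The APCDD1L-DT ratio differed by −0.30 at gene level, of which 51.4% is assembled, whereas its level from annotated transcripts alone was higher with LPS in all 3 libraries (log2 change 0.50). The ratios of APCDD1L-DT and NDUFA6-DT were apart although the groups overlapped in both genes of the pair. The ratios of NDUFA6-DT and UVRAG-DT were higher with LPS by 0.55 and 0.49. UVRAG-DT is a member only through its LPS libraries (mean 0.859 FPKM, against 0.487 FPKM in controls). The choice of members therefore favours a higher ratio with LPS for UVRAG-DT. In the FLVCR1 and RELA pairs the partner's groups were apart and the member's overlapped, while in the UVRAG pair the member's were apart. FLVCR1-DT is the only one of the 5 whose level lay wholly in annotated transcripts.

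**Figure D5:**
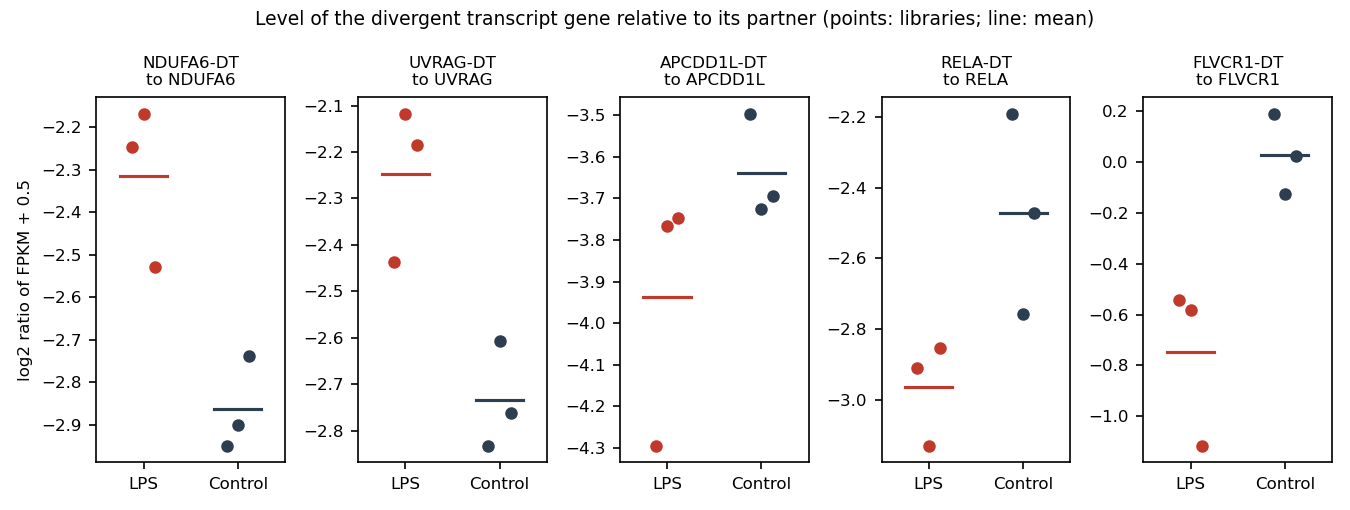
Log2 ratio of divergent gene to partner (FPKM + 0.5) in each library for the 5 pairs whose groups do not overlap, with points for libraries and lines for means, on separate y axes. The ratio is higher with LPS for NDUFA6-DT and UVRAG-DT and lower for APCDD1L-DT, RELA-DT and FLVCR1-DT.

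At transcript level 26 transcripts of 17 members were tested, 11 annotated and 15 assembled. None passed (lowest limma adjusted p = 0.819), beside 0.098% of all 35727 transcripts, and 1 had an unadjusted p under 0.05, GAS6-DT-201, beside 5.77% of all. The groups did not overlap in 4, 2 higher and 2 lower with LPS, beside 12.4% of all transcripts (6.18% higher and 6.24% lower). Besides those already given, an assembled MAP4K3-DT transcript along MAP4K3 stood at 0.548 ± 0.0563 FPKM with LPS and 0.897 ± 0.0897 FPKM in controls. Of the 26, 5 were listed at 0 in some library. Power was low at this level. In simulated data over 35727 transcripts, 100 were changed by 2 log2 units and 100 by 4. Of these, 21% and 41% were recovered. With 35 transcripts past the adjusted threshold in the data, recovery there may be lower.

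Genes that end or degrade divergent transcripts gave no call in either direction. Of the RNA exosome and its adaptors 24 genes were tested, with a median log2 change of −0.11 and 7 positive, beside −0.01 for all genes. MPHOSPH6, an exosome cofactor, stood at 4.85 ± 0.672 FPKM with LPS and 6.52 ± 0.969 FPKM in controls, and MTREX, the helicase that feeds the nuclear exosome, at 11.4 ± 0.705 and 13.7 ± 1.32 FPKM, both without overlap. Of 15 Integrator genes (median −0.02), INTS3 stood at 9.0003 ± 1.03 and 11.3 ± 1.40 FPKM and INTS6 at 7.58 ± 1.0003 and 10.0 ± 2.11 FPKM. The 8 genes of early termination at promoters had a median of −0.18, with PPP1R10 at 11.2 ± 0.978 FPKM with LPS and 13.4 ± 0.584 FPKM in controls and the methyltransferase SETD1B at 3.80 ± 0.377 and 2.99 ± 0.237 FPKM.

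Of 16 cleavage and polyadenylation factors (median −0.07), CSTF1 stood at 3.98 ± 0.518 FPKM with LPS and 5.41 ± 0.776 FPKM in controls and the endonuclease CPSF3 at 8.33 ± 0.596 and 9.37 ± 0.490 FPKM. Of 13 genes for U1 snRNP proteins (median −0.01), SNRPG stood at 8.91 ± 1.07 and 11.2 ± 0.984 FPKM and SNRPB at 76.6 ± 4.42 and 60.4 ± 11.1 FPKM. By limma the lowest adjusted p among the genes named in these lists was 0.513, and 4 of the 76 tested had an unadjusted p under 0.05, beside 9.21% of all genes. The groups did not overlap in 4 exosome, 4 Integrator, 2 early termination, 2 cleavage and polyadenylation and 3 U1 snRNP genes, beside 15.9% of all genes.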

How the data were processed

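Per the labels' protocols, RNA came from EA.hy926 cells with or without LPS. The deposited values are FPKM per transcript and per gene, made by the authors. Per the submitters' processing notes HISAT2 and StringTie were used and the build was mm9; their versions are not known here, nor is the read depth. The identifiers and positions in the files are human and fall at GENCODE 29 (GRCh38) loci, so GRCh38 was used. FPKM steps did not give whole reads, so no count test was run. Genes with a mean of at least 0.5 FPKM were tested on log2(FPKM + 0.5), a scale that understates the change of low genes, with limma 3.58.1 in R 4.3.3 (moderated test with a trend, LPS minus control, Benjamini-Hochberg adjustment over all features, threshold 0.05). Ratios to partners were tested with a two-sided exact permutation test over libraries. The fits were tested on simulated data. Genes singled out were the 10 members and 10 partners with the smallest p, the 8 most abundant members and the 3 genes on either side of the membership threshold. To these came the 5 highest and 5 lowest ratios and 2 genes per list. Also taken were the 4 pairs whose changes differed most among pairs whose ratios did not overlap between groups. Pairs with overlapping ratios, such as CTBP1-DT (difference −1.20) and NCK1-DT (−0.71), were thus left out of those 4. Other members are given by their means. Of the members, 2 are in all counts and fits but are not reported by name here. The members and lists were chosen with earlier results of these data known. Alternatives were other pseudocounts, filters, scalings, library weights, a block for library number, other membership thresholds and leaving out each library.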

Additional observations from a re-analysis of the deposited data

How the results depend on the processing

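Under all settings tried, 0 members passed the adjusted threshold of limma, while the number with an unadjusted p under 0.05 was 3 in the reported fit, 0 without control library 3, 2 without LPS library 2, 1 without any other library, 1 without a filter and 2 with the replicate block. The number of all genes that passed was 8; it was 0 without a filter on low values (2196 at an unadjusted p under 0.05), 5 with a pseudocount of 1, 5 with quantile scaling and 1 to 6 when a library was left out (4, 1 and 3 without LPS library 1, 2 or 3, and 3 without control 2). With a replicate block on library number it was 0 (1736 at an unadjusted p under 0.05), and 0 members passed. The correlations of same-numbered libraries' deviations were 0.026, 0.121 and 0.0926, so the numbers were not taken to pair the samples; each library correlated best with its own number, which is a hint from the data and not from the design. The median change of members was −0.0476 without LPS library 1 and ran from −0.155 to −0.0476 over libraries left out. The median change of partners, reported as −0.02, ran from −0.0884 to 0.0141 over libraries left out and turned in sign without LPS library 2. The correlation of levels across pairs was 0.139 from annotated transcripts alone. Of 415 recomputed changes of 30 named genes, 11 in 6 genes turned in sign; NUP50-DT was 0.0324 with library weights. Leaving out a library gave −0.33 to 0.12 for LY6E-DT, −0.29 to 0.0533 for MAN1B1-DT, −0.14 to 0.0718 for NUP50-DT, −0.14 to 0.27 for ZNF236-DT, −0.16 to 0.17 for ITGB1-DT and −0.0634 to 0.18 for RELA-DT. It gave −1.44 to −0.61 for GAS6-DT, −1.72 to −0.87 for CTBP1-DT, 0.36 to 0.75 for NDUFA6-DT and 0.33 to 0.58 for UVRAG-DT. With a pseudocount of 0.1 the change was −2.18 for CTBP1-DT and 0.72 for UVRAG-DT, and with 1 it was −0.94 and 0.32. The causes were not tested. Read depth is unknown, which limits what can be said of low values.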

Other observations

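Of the 67 divergent transcript genes under 0.5 FPKM, 48 were above 0 in some library, with a median mean of 0.0720 FPKM. The groups did not overlap in 2 of these 48, both lower with LPS and singled out after their values were seen. Among all genes tested, which had a mean of at least 0.5 FPKM, the share was 15.9% (7.76% lower). A low gene listed at 0 in libraries of both groups always counts as overlapping, so these shares cannot be compared. EPB41L4A-DT stood at 0.0366, 0.0861 and 0.0781 FPKM with LPS and at 0.247, 0.179 and 0.508 FPKM in controls. CEP83-DT stood at 0.0749, 0.0238 and 0.0432 FPKM with LPS and at 0.153, 0.0844 and 0.129 FPKM in controls. Both were too low for the test, and at an unknown read depth the counting error of such values is unknown.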
